A study of Sus scrofa with 8 samples.

Results

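The genes that make prostaglandins and their receptors were followed in whole blood of sows that were pregnant or not pregnant 14 days after insemination. The members are all array probes whose RefSeq transcript belongs to a pig gene with a symbol beginning PTGS, PTGE, PTGF, PTGI or PTGD, or to HPGD. This rule found 9 probes of the 43603 on the array that are not controls, and they stand for 6 genes: PTGS2, PTGES, PTGES3, PTGDS, PTGER3 and PTGFR. The rule uses names only. The array has probes named for 2389 genes in all. The other 12 genes of the rule in the name table had no probe named for them and are not analysed here, among them PTGS1, HPGD, PTGER2, PTGER4 and PTGIS.

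The samples were whole blood of 8 female pigs (Sus scrofa) in the fifth parity, taken from the submandibular vein, 4 from pregnant and 4 from non-pregnant sows. All 8 had been inseminated, and no drug, transgene or other treatment is named for either group. The sows were chosen as 3 half-sib pairs and 1 unrelated pair, and the labels do not say which sows form a pair. Each sow gave 1 single-colour Agilent array, so differences between animals and between arrays cannot be told apart.

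Prostaglandins are lipid signals made from arachidonic acid. A cyclooxygenase (PTGS1 or the inducible PTGS2) makes the intermediate prostaglandin H, terminal synthases turn it into prostaglandin E, D, F or I, and receptors coupled to G proteins sense the products on nearby cells. In the pig, prostaglandin F from the uterus ends the life of the corpus luteum, and the balance between prostaglandins E and F in the uterus is part of how the presence of conceptuses is recognised. In blood, platelets, monocytes and other white cells make and sense prostanoids.

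Of the 5 genes that could be tested, none (0 of 5) differed between pregnant and non-pregnant sows beyond the spread among sows. The same test called 0 of all 26481 probes kept. The widest variation among the members was in PTGDS, the prostaglandin D synthase, whose signal spanned 84.3-fold over the 8 sows, with high and low sows in both groups. PTGES, the inducible prostaglandin E synthase, followed PTGDS from sow to sow (Pearson r = 0.918 over 8 arrays, a description with no test). The other probes tested spanned less than PTGDS, with or without pregnant replicate 2, and PTGFR, the receptor for prostaglandin F, was not well above background in any sow (0 of 8 arrays).

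Values are log2 signals relative to the 75th percentile of the same array, so 0 marks a spot as bright as that percentile. Levels were compared only within a probe, since probes differ in how brightly they label. The arrays had 61.7% to 69.2% of their probes well above background, 0 saturated spots, and a 75th percentile of 142 to 297 signal units. The array of pregnant replicate 2 was the dimmest and the least like the others, with a lowest r between arrays of 0.870 with it and 0.946 without it. Each of 2 slides carried 2 pregnant and 2 non-pregnant sows. Slide 1 held replicates 1 and 3 and slide 2 held replicates 2 and 4. Of the 9 member probes, 7 were well above background on all 8 arrays and entered the test (5 genes), and 2 did not enter it.

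Blood identity was checked against marker lists. Of 13 platelet markers 7 were measured under their symbol and well above background, of 12 T cell markers 9, of 14 neutrophil markers 8, of 12 monocyte and macrophage markers 6, and of 10 markers of natural killer and cytotoxic cells 6. For B cells the count was 2 of 9, and for eosinophils, basophils and mast cells 4 of 13. For red cell precursors it was 0 of 13, 1 of them with a probe not well above background in either group and the rest with no probe named for them. In whole blood, fewer cells of a type and less RNA per cell cannot be told apart.

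**Figure D1:**
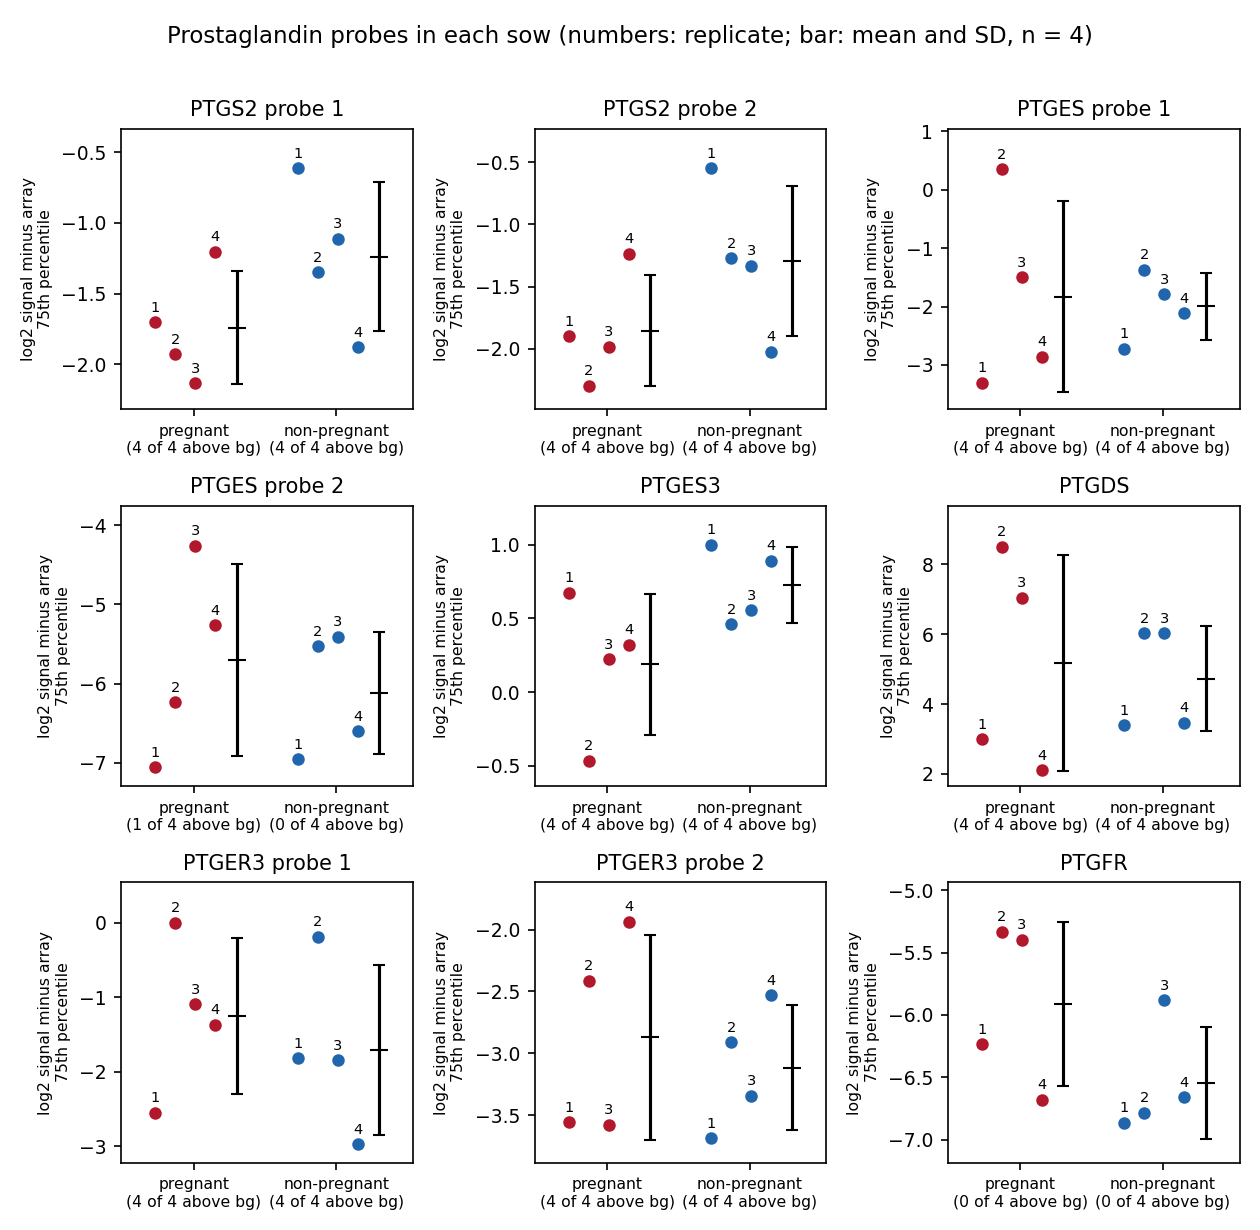
Log2 signal relative to the array's 75th percentile (vertical axis) of the 9 prostaglandin probes, 1 panel per probe, with pregnant sows in red and non-pregnant sows in blue. Each point is 1 sow, the small number is its replicate, the bar gives the mean and SD of 4 sows, and the line under each group counts arrays well above background (bg). PTGDS runs from 2.11 to 8.51 with high and low sows in both groups, while the PTGFR panel and the second PTGES panel show spots at or near background.

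PTGS2 is the inducible cyclooxygenase, which monocytes, neutrophils and other cells switch on in inflammation. It was measured by 2 probes for 1 transcript, probe 1 (A_72_P302784) and probe 2 (A_72_P443218). With probe 1, the pregnant sows, in the order of replicates 1 to 4, had log2 signals of -1.70, -1.93, -2.13 and -1.20. The non-pregnant sows had -0.61, -1.35, -1.11 and -1.88. Non-pregnant replicate 1 was the highest sow and pregnant replicate 3 the lowest, and the groups overlapped because pregnant replicate 4 and non-pregnant replicate 4 crossed. The mean was -1.74 ± 0.40 in pregnant and -1.24 ± 0.53 in non-pregnant sows (SD, n = 4 each). That is a ratio of 0.705 (95% interval 0.424 to 1.17), with a limma adjusted p of 1.00 (unadjusted p = 0.156).

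The second PTGS2 probe gave a like picture. Pregnant sows had -1.90, -2.29, -1.98 and -1.23, and non-pregnant sows had -0.55, -1.27, -1.33 and -2.02. The ratio was 0.679 (95% interval 0.391 to 1.18, limma adjusted p = 1.00, unadjusted p = 0.149). The probes tracked each other over the 8 arrays (r = 0.953), and their difference varied from sow to sow with an SD of 0.18 on the log2 scale. Both placed 3 of 4 pregnant sows below the median of the non-pregnant sows.

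The PTGS2 difference was not alike on both slides. On slide 1 the log2 fold change was -1.06 with probe 1 (unadjusted p = 0.0345 and limma adjusted p = 1.00) and -0.999 with probe 2. On slide 2 it was 0.046 and -0.12. The difference between slides was not tested. Leaving out non-pregnant replicate 1 brought the log2 fold change from -0.50 to -0.30 with probe 1 and from -0.56 to -0.31 with probe 2. Leaving out non-pregnant replicate 4 took it to -0.72 and -0.80.

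PTGES is the membrane-bound, inducible prostaglandin E synthase that works with PTGS2. Its probe 1 (A_72_P495640) gave -3.31, 0.35, -1.50 and -2.86 in the pregnant sows. It gave -2.72, -1.37, -1.79 and -2.12 in the non-pregnant sows. Pregnant replicate 2 was the highest sow, and pregnant replicates 1 and 4 were below every non-pregnant sow, and pregnant replicate 3 was among them. Signals spanned 12.6-fold over the 8 sows, and 3.82-fold without pregnant replicate 2. With signal not scaled between arrays the span over the 8 sows was 6.02-fold. The means were -1.83 ± 1.64 and -1.9998 ± 0.57 (SD, n = 4 each), a ratio of 1.13 (95% interval 0.376 to 3.37, limma adjusted p = 1.00). Without pregnant replicate 2 the log2 fold change moved from 0.17 to -0.55, and without pregnant replicate 1 it was 0.66. It was -0.14 on slide 1 alone and -0.35 with a normexp background correction.

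The second PTGES probe (A_72_P177991), for the same transcript, was well above background on 1 of 8 arrays, that of pregnant replicate 3 at -4.26. The remaining pregnant sows had -7.06, -6.24 and -5.26 (replicates 1, 2 and 4), and the non-pregnant sows had -6.95, -5.53, -5.41 and -6.60. Values at background give no order of the sows, so PTGES is described by probe 1 alone, and probe 2 neither bears it out nor goes against it.

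PTGES3 is the cytosolic prostaglandin E synthase, also known as p23, a helper protein of the chaperone HSP90. On its probe (A_72_P504374) the pregnant sows had 0.67, -0.47, 0.22 and 0.32, and non-pregnant sows had 1.00, 0.46, 0.55 and 0.89. Here 3 of 4 pregnant sows lay below every non-pregnant sow, and pregnant replicate 1 lay among them. The mean was 0.19 ± 0.48 in pregnant and 0.73 ± 0.26 in non-pregnant sows (SD, n = 4 each). The ratio of 0.689 (95% interval 0.437 to 1.09) had a limma adjusted p of 1.00, and its unadjusted p of 0.0976 was the smallest among the members. The log2 fold change was -0.33 on slide 1 and -0.75 on slide 2. It lay between -0.70 and -0.32 with any 1 array left out, nearest to 0 without pregnant replicate 2. With a normexp background correction it was -0.052 (unadjusted p = 0.830, limma adjusted p = 0.874).

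PTGDS is the lipocalin-type prostaglandin D synthase, which also carries small lipophilic molecules. On its probe (A_72_P223832) the pregnant sows had 3.00, 8.51, 7.05 and 2.11, and non-pregnant sows had 3.39, 6.03, 6.02 and 3.46. In each group replicates 2 and 3 were the high sows and replicates 1 and 4 the low ones. Pregnant sows held both the highest and the lowest value. The processed signal itself ran from 967 in pregnant replicate 4 to 51988 in pregnant replicate 2. The range over the 8 sows was 6.40 on the log2 scale, or 84.3-fold.

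Few probes varied as much as PTGDS. Its SD over the 8 arrays lay at the 99.8th percentile of the probes kept, and 46 of them had a larger one. PTGES probe 1 and PTGER3 probe 1 were at percentiles 93.5 and 91.5 of the same measure. The PTGDS range was 30.5-fold without pregnant replicate 2, 16.5-fold among the 4 arrays of slide 1, 84.3-fold among those of slide 2, and 63.1-fold in the authors' deposited log2 table. The high and low sows thus occurred on both slides and in both groups.

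The group means of PTGDS, 5.17 ± 3.09 in pregnant and 4.72 ± 1.50 in non-pregnant sows (SD, n = 4 each), differed by far less than this spread. The ratio was 1.36, with a 95% interval from 0.166 to 11.1 (limma adjusted p = 1.00). Leaving out pregnant replicate 2 took the log2 fold change from 0.44 to -0.67, leaving out pregnant replicate 3 took it to -0.18, and leaving out pregnant replicate 4 took it to 1.46. It was 1.34 with array weights and 1.32 with a normexp background correction. The pregnant sows spanned 6.40 on the log2 scale and the non-pregnant sows 2.64, a difference in spread that was not tested.

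PTGER3 encodes EP3, a receptor for prostaglandin E that mostly lowers cyclic AMP and is found on platelets among other cells. Probe 1 (A_72_P012616) gave -2.55, 0.00, -1.09 and -1.37 in pregnant sows. It gave -1.81, -0.19, -1.85 and -2.97 in non-pregnant sows. Replicate 2 was the highest sow in each group, and signals spanned 7.88-fold. With signal not scaled between arrays they spanned 9.75-fold, and non-pregnant replicate 2 was the highest of the 8 sows. The means were -1.25 ± 1.05 and -1.71 ± 1.15 (SD, n = 4 each), a ratio of 1.37 (95% interval 0.509 to 3.70, limma adjusted p = 1.00).

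With probe 2 of PTGER3 (A_72_P440186), for the same transcript, pregnant sows had -3.56, -2.41, -3.58 and -1.94. Non-pregnant sows had -3.69, -2.91, -3.34 and -2.53. Here replicate 4 was the highest sow in each group, and non-pregnant replicate 4, the lowest sow with probe 1, was among the higher ones. The probes of this receptor disagreed on the order of the sows (r = 0.238 over 8 arrays). Probe 2 gave a ratio of 1.19 (95% interval 0.610 to 2.31, limma adjusted p = 1.00), which was on the other side of 1 without pregnant replicate 4 (log2 fold change -0.065 in place of 0.25). With a normexp background correction the log2 fold changes of probes 1 and 2 were -0.35 and -0.85, so no direction is given for this receptor. No order of the sows by PTGER3 level is given, since it depends on the probe.

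PTGFR encodes the FP receptor, through which prostaglandin F acts on the corpus luteum and the myometrium. Its probe (A_72_P146291) was well above background on 0 of 8 arrays, with processed signals from 1.74 to 5.54. Pregnant sows had -6.23, -5.33, -5.40 and -6.68, and non-pregnant sows had -6.87, -6.78, -5.88 and -6.66. These values lie at background in both groups, so no fold is given.

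**Figure D2:**
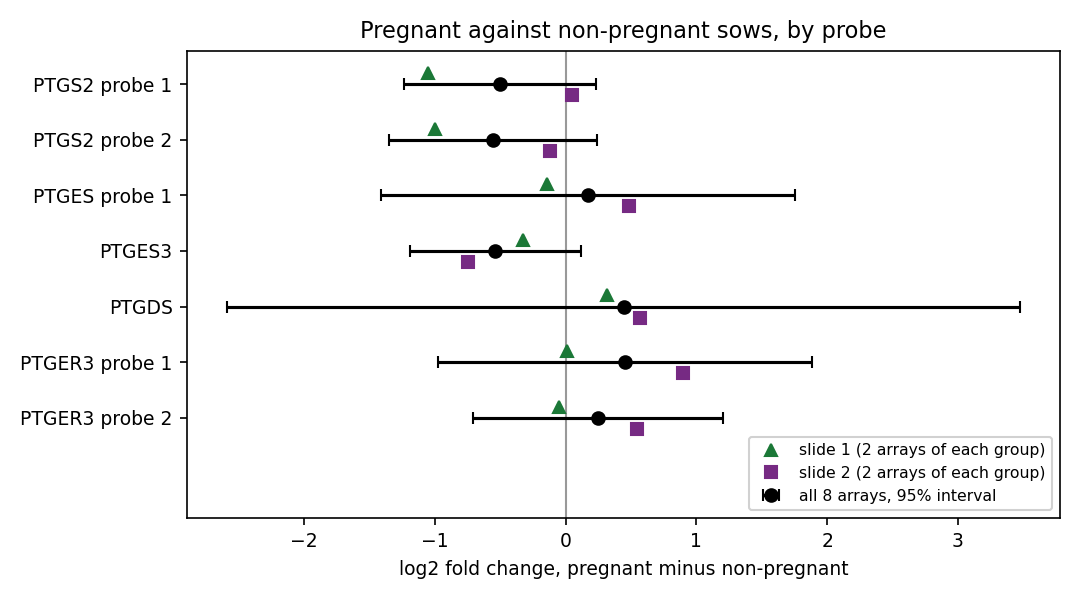
Log2 fold change of pregnant against non-pregnant sows (horizontal axis) for the 7 prostaglandin probes that entered the test. Black points with bars are the fits on all 8 arrays with their 95% intervals, green triangles the values on slide 1 and purple squares those on slide 2, each from 2 arrays of each group; every interval spans 0, and for PTGS2 the slide 1 values of -1.06 and -0.999 lie far from the slide 2 values of 0.046 and -0.12.

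Across the 7 probes tested, 0 passed an adjusted p of 0.05 in limma, and 0.0% of all 26481 probes did. At an unadjusted p under 0.05 the members again counted 0 of 7, against 2.28% of all probes. Both PTGS2 probes, 2 of 7, were under it on slide 1 alone, where probe 2 had a limma unadjusted p of 0.0473. On that slide 938 of all 26481 probes were under it. The PTGS2 probes were also under it with array weights (unadjusted p = 0.0206 and 0.0454, limma adjusted p = 0.537 and 0.604). That setting put 2163 of all 26481 probes under it. Leaving out pregnant replicate 1 put 1 of 7 member probes and 1070 of all 26481 probes under it. The PTGS2 probes are for the same transcript and tracked each other (r = 0.953), so they are not 2 independent members. The groups did not overlap in 0 of the 7, against 1.58% of all probes. A higher mean in pregnant sows was seen in 4 of 7, against 43.3% of all probes, and a lower one in 3 of 7, against 56.7%. The smallest adjusted p over all probes was 0.533, so the test called no probe anywhere on the array.

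The intervals set what could have been missed. For PTGS2 and PTGES3 they reached down to ratios of 0.391 and 0.437 and up to 1.18 and 1.09. They were wider for PTGER3 probe 1 (0.509 to 3.70) and PTGES (0.376 to 3.37), and widest for PTGDS (0.166 to 11.1). A p that misses the threshold does not show equal levels.

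The profiles of the members were set beside each other without regard to group. Taking the brightest probe of each gene over the 8 arrays, PTGDS and PTGES were high and low in like sows (r = 0.918, and 0.884 over the 7 arrays without pregnant replicate 2). PTGES3 ran against PTGES (r = -0.785), but at -0.38 without that array. PTGER3 probe 1 went with PTGES at r = 0.733 and with PTGDS at 0.700, which became 0.560 and 0.531 without it, and probe 2 of PTGER3 put the sows in another order. PTGS2 was not close to any other member (r between -0.44 and 0.50). All genes of an array share its labelling and scaling, so these are descriptions over 8 arrays.

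The named genes whose profile was nearest to each member were found in the same way. For PTGDS they were MGAT1, an enzyme of N-glycan synthesis (r = 0.995), a gene listed as TP23 (r = 0.994), and ADRB1, the beta-1 adrenergic receptor (r = 0.991). MGAT1 was at 5.05, 8.90, 7.58 and 4.47 in pregnant and 5.15, 6.79, 6.90 and 5.18 in non-pregnant sows, a 21.7-fold range. ADRB1 spanned 20.97-fold and TP23 8.70-fold with the same high and low sows. Without pregnant replicate 2, r with MGAT1 was 0.998, with TP23 0.993 and with ADRB1 0.986.

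More probes followed PTGES. Its nearest genes were PGLYRP2, a peptidoglycan amidase, DUOX2, which generates hydrogen peroxide, and ATPIF1, an inhibitor of the mitochondrial ATP synthase, each at r = 0.992. Of the 26480 other probes kept, 1930 (7.29%) reached r of 0.9 with PTGES and 931 (3.52%) with PTGDS. The median probe had 0.748%. PTGES3, with 502 (1.90%), was above that median, and PTGER3, with 146 (0.551%), and PTGS2, with 38 (0.144%), were below it. Without pregnant replicate 2 the counts were 786 (2.97%) for PTGES, 621 (2.35%) for PTGDS, 176 (0.665%) for PTGES3, 116 (0.438%) for PTGER3 and 72 (0.272%) for PTGS2, with 0.597% for the median probe.

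PTGS2 stood in a narrower group. Its nearest genes were ARL6IP5 (r = 0.929), SELP, which encodes the platelet and endothelial adhesion molecule P-selectin and is in the platelet list (r = 0.928), and FHL1, a LIM-domain protein (r = 0.923). SELP was at 2.83, 2.57, 2.52 and 3.25 in pregnant sows and at 4.01, 3.102, 3.15 and 3.03 in non-pregnant sows. As with PTGS2, non-pregnant replicate 1 was the highest sow and pregnant replicate 4 the highest pregnant one. These correlations did not rest on pregnant replicate 2, without which they were 0.961, 0.919 and 0.912. They were not computed without non-pregnant replicate 1, the highest sow in each of these profiles, so how far they rest on it is not known.

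**Figure D3:**
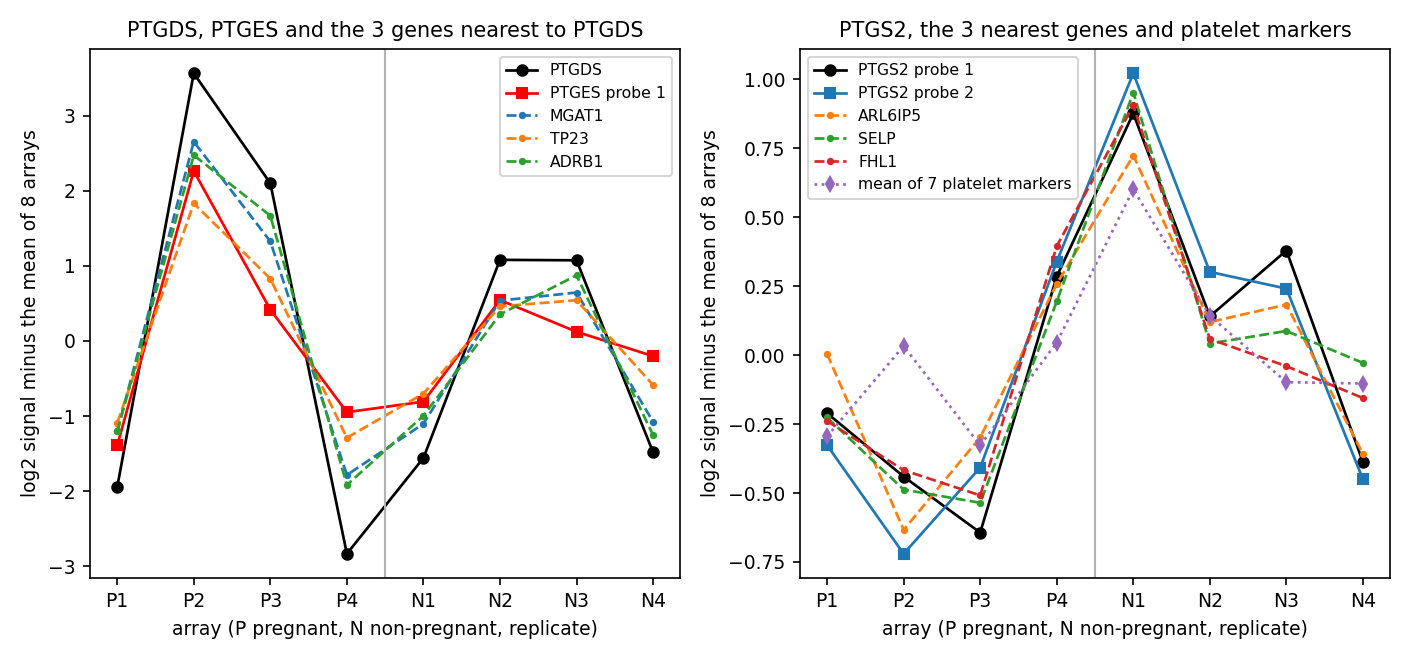
Log2 signal of each array minus the mean of the 8 arrays (vertical axis) for PTGDS, PTGES and the 3 genes nearest to PTGDS (left), and for both PTGS2 probes, the 3 genes nearest to PTGS2 and the mean of 7 platelet markers (right). Arrays are marked P (pregnant) or N (non-pregnant) with their replicate, which have no order, and lines only join the values of 1 gene; on the left replicates 2 and 3 of both groups are high, and on the right N1 is highest in every profile.

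For PTGES3 the nearest genes were GOPC, a Golgi protein (r = 0.962), RNF19A, a ubiquitin ligase (r = 0.960), and SOCS5, a suppressor of cytokine signalling (r = 0.958). All were under 0.9 without pregnant replicate 2, at 0.891, 0.879 and 0.894. For PTGER3 probe 1 they were the defensin gene DEFB125 (r = 0.950), IL12RB2, a chain of the interleukin-12 receptor (r = 0.930), and the chemokine gene CCL19 (r = 0.930). Without that array these were 0.925, 0.899 and 0.897.

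Markers of blood cell types moved beside some of these values. The mean of the 7 platelet markers, SELP among them, lay between 3.45 and 3.82 in pregnant and between 3.67 and 4.37 in non-pregnant sows. Its highest value was in non-pregnant replicate 1, the sow with the most PTGS2. ITGA2B and ITGB3 were highest in pregnant replicate 2 (5.03 and 11.55), and the other platelet markers in non-pregnant replicate 1. Of the platelet markers 6 of 7 had a lower mean in pregnant sows (median log2 fold change -0.27, 0 past the test), against 1015 of 1817 named genes (median -0.036). The platelet median was -0.049 without non-pregnant replicate 1. Monocyte markers had a higher mean in pregnant sows in 6 of 6 cases (median 0.45, 0 past the test), against 802 of 1817 named genes. Their list means were 0.89 to 1.37 in pregnant and 0.38 to 0.91 in non-pregnant sows. On slides 1 and 2 the medians were -0.52 and 0.018 for platelets, 0.74 and 0.19 for monocytes, 0.55 and -0.24 for neutrophils, and -0.18 and -0.48 for T cells, and the differences between slides were not tested. The part of these markers in the PTGS2 values was not tested.

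The mean of the neutrophil markers was highest in pregnant replicate 2, where PTGDS, PTGES and PTGER3 probe 1 were highest too. The markers were split. MMP9 was at 5.81 there and highest in non-pregnant replicate 4 at 8.90, where S100A12 was highest too (3.73). LTF was highest in pregnant replicate 3 (1.75), and the remaining markers in pregnant replicate 2. The list mean ran from 1.22 to 2.85 in pregnant and from 1.17 to 2.12 in non-pregnant sows. A higher mean in pregnant sows was seen in 6 of 8 markers (median 0.18), against 802 of 1817 named genes. The 6 include PMAP-36, which passed the filter through the pregnant group only (well above background in 3 of 4 non-pregnant sows). Over the 7 markers well above background on all 8 arrays the median was 0.17. Without pregnant replicate 2 the median of the 8 markers was -0.078. Across the sows the match was partial. Non-pregnant replicate 4, second in neutrophil markers at 2.12, was among the low sows in PTGDS. Their part in the PTGDS and PTGES values was not tested.

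T cell markers had a lower mean in pregnant sows in 9 of 9 cases (median log2 fold change -0.43, 0 past the test). Over all named genes 1015 of 1817 were lower (median -0.036). For CD8A (limma unadjusted p = 0.0314) and CD3D, all 4 pregnant sows lay below all 4 non-pregnant sows, and 1.58% of all probes separated in one direction or the other. The T cell list mean was 1.64 to 2.28 in pregnant and 2.21 to 2.51 in non-pregnant sows. It was lowest in pregnant replicate 2, the sow with the least PTGES3. Markers of natural killer and cytotoxic cells had a lower mean in 6 of 6 (median -0.43), with list means of 0.94 to 1.63 against 1.29 to 2.04. Both B cell markers did so too (2 of 2, median -0.28, list means -0.26 to 0.18 against -0.22 to 0.47). Markers of eosinophils, basophils and mast cells split 2 to 2 (median -0.047, list means 1.81 to 2.64 against 1.87 to 2.67). With the planned normexp background correction the medians were 0.37 for T cells, 0.064 for natural killer and cytotoxic cells and 0.29 for platelets, so those directions turned. With high local backgrounds replaced first they were -0.27, -0.43 and -0.25. The part of these markers in the PTGES3 values was not tested.

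The genes around the members were described by lists of textbook pathway genes, each gene by its brightest probe. Over all 1817 named genes measured, 802 had a higher and 1015 a lower mean in pregnant sows, with a median log2 fold change of -0.036, and 38 had an unadjusted p under 0.05. In each of the 5 lists the count at an adjusted p of 0.05 in limma was 0, and so was the count at an unadjusted p under 0.05.

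Of 27 listed genes that supply arachidonic acid, 5 were measured, 2 with a higher and 3 with a lower mean in pregnant sows (median log2 fold change -0.090). The 3 include MGLL and PLA2G1B, which passed the filter through the non-pregnant group only, so this count partly follows the filter. Over the 3 genes well above background on all 8 arrays the median was 0.26. MGLL, which releases arachidonic acid from an endocannabinoid, had a log2 fold change of -0.50, measured above background in 3 of 4 pregnant sows. PLA2G1B, a secreted phospholipase A, was well above background in 2 of 4 pregnant sows. No fold is given for it, and its place in the count is not read as a direction. ACSL4, which activates arachidonic acid for storage in phospholipids, had 0.32, and its other 5 probes, in the same sows, gave 0.33 to 0.54. Without non-pregnant replicate 2 its brightest probe gave 0.095. FADS1, a desaturase in arachidonic acid synthesis, had 0.26.

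Of 22 listed genes for other prostanoid enzymes, receptors and transporters, 7 were measured, 4 higher and 3 lower (median 0.039). CBR1, a carbonyl reductase that can turn prostaglandin E into prostaglandin F, was at -0.08, -0.79, -0.07 and -0.59 in pregnant sows. It was at 0.58, 0.00, 0.15 and 0.10 in non-pregnant sows. All 4 pregnant sows lay below all 4 non-pregnant sows, a separation that 1.58% of all probes showed in one direction or the other. The ratio was 0.664 (limma adjusted p = 1.00, unadjusted p = 0.0512), and the log2 fold change was -0.44 on slide 1 and -0.74 on slide 2.

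TBXAS1, the thromboxane synthase of platelets and monocytes, had a log2 fold change of 0.24, and 0.28 with its other probe. The value was -0.16 on slide 2 alone. FAM213B, a prostaglandin F synthase, had -0.31. PTGR1, a reductase that inactivates prostaglandins and leukotrienes, had 0.18, 0.099 with its other probe and -0.15 on slide 2 alone. The PTGR1 probes did not track each other over the arrays (r = -0.074).

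Of 23 listed genes of the lipoxygenase and leukotriene pathway, the sister route from arachidonic acid, 7 were measured, 5 higher and 2 lower (median 0.055). The higher ones include EPHX2, which passed the filter through the pregnant group only. Over the genes well above background on all 8 arrays the median was 0.060. The receptors for cysteinyl leukotrienes had log2 fold changes of 0.35 (CYSLTR1) and 0.32 (CYSLTR2). CYSLTR1 was highest in pregnant replicate 2 at 0.54, and without that array its log2 fold change was -0.16. ALOX15, the 15-lipoxygenase, had -0.24, and 0.027 without the same array. GGT1, which takes part in converting leukotriene C to leukotriene D, had -0.22.

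Of 30 listed inducers and regulators of PTGS2, 15 were measured, 6 higher and 9 lower (median -0.042). The lower ones include IL4, which passed the filter through the non-pregnant group only. Over the genes well above background on all 8 arrays the median was -0.022. IL1B, the inflammatory cytokine that induces PTGS2, was at 1.44, 0.72, 1.59 and 1.57 in pregnant and 2.22, 3.30, 1.95 and 0.78 in non-pregnant sows. Its log2 fold change was -0.73 (limma adjusted p = 1.00, unadjusted p = 0.157), and -0.32 without non-pregnant replicate 2. The groups overlapped through non-pregnant replicate 4, which was also the lowest non-pregnant sow for PTGS2. IL4, well above background in 3 of 4 pregnant sows, had -0.69, and -0.28 without pregnant replicate 2. TLR4 and CD14, which sense bacterial lipopolysaccharide and are also in the monocyte list, had 0.43 and 0.46. For CD14 the value was -0.19 on slide 2 alone.

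Of 31 listed genes of receptor signalling through G proteins and cyclic AMP, 8 were measured, 5 higher and 3 lower (median 0.11). GNAQ, the G protein subunit used by the prostaglandin F receptor, had -0.35, which was -0.033 without pregnant replicate 2. GNAI3, an inhibitory subunit of the kind EP3 couples to, had 0.19. PDE4B, a phosphodiesterase that breaks down cyclic AMP, had -0.47, and -0.16 and -0.072 with its other probes. Those probes tracked the brightest one weakly (r = 0.25 and 0.24). PRKAR1A, a regulatory subunit of protein kinase A, had 0.29 with its brightest probe, while its other 3 probes gave -0.10, -0.44 and -0.10. No direction is given for PRKAR1A.

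**Figure D4:**
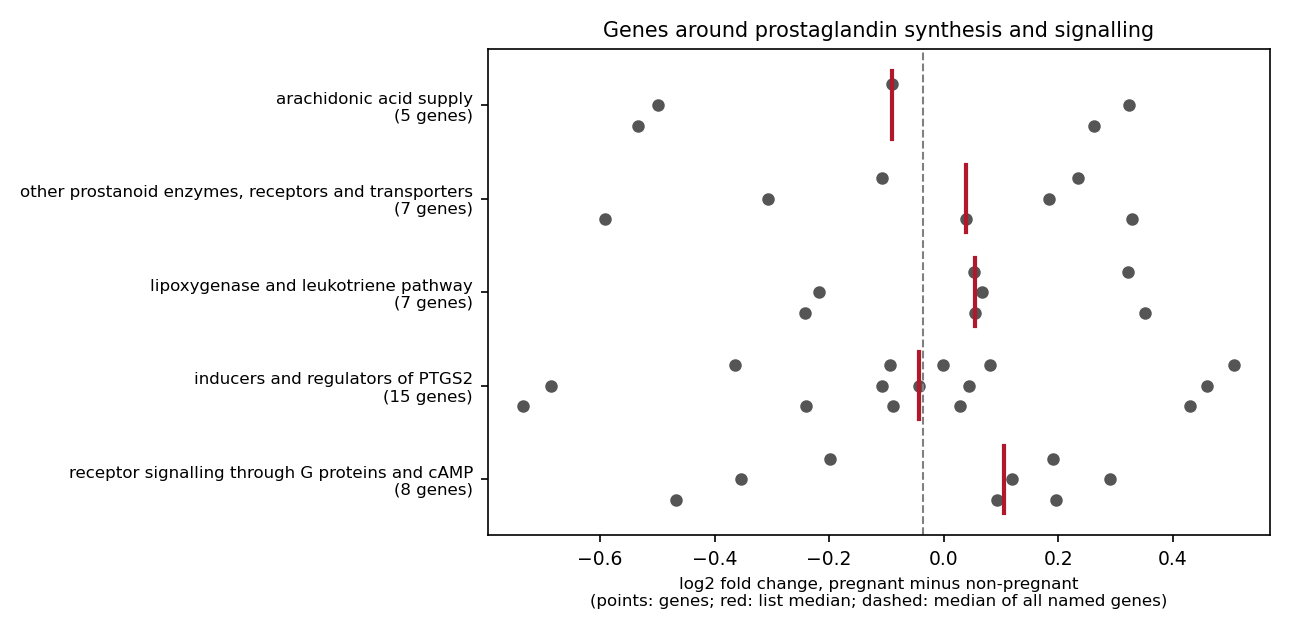
Log2 fold change of pregnant against non-pregnant sows (horizontal axis) for the genes of 5 lists around prostaglandin synthesis and signalling. Each point is 1 gene by its brightest probe, red bars are list medians and the dashed line is the median of all 1817 named genes at -0.036; list medians run from -0.090 to 0.11, and the points of every list lie on both sides of 0.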

How the data were processed

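Whole blood of 4 pregnant and 4 non-pregnant sows was measured on 8 single-colour Agilent arrays. Per the submitters' processing notes, Agilent Feature Extraction 10.7 made the scanner output deposited for each array. The processed signal there, a linear spot intensity, is background-subtracted per the file headers. Deposited beside it is 1 log2 table for all arrays, with its normalization not given in the sources used. Its columns share their quartiles (2.19, 5.03 and 7.76), and each correlated with log2 of its own array's processed signal at r of 0.999 or higher, so its direction is known and its centring and software are not.

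Each array's log2 processed signal was taken relative to its 75th percentile, which sets arrays on a common level but cannot correct a change in the shape of the distribution. Of 43603 probes, 215 with every spot marked as an outlier on some array were dropped, and 26481 (60.7%) were kept because every array of the pregnant or of the non-pregnant group measured them well above background. The comparison used limma 3.58.1 (lmFit and eBayes, two-sided) in R 4.3.3, with Benjamini-Hochberg adjustment over all kept probes and a threshold of 0.05. Tables and plots were made in Python 3.11.15 with pandas 2.3.3 and matplotlib 3.10.9.

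Of 5779 probes with a RefSeq transcript, 5461 matched 2389 symbols of the Sscrofa11.1 annotation, from which only names were taken. No build is named for the array, and positions and sequences are not used here. Named genes are every member, up to 4 genes per pathway list by unadjusted p, and the 3 nearest genes by r for each measured member. The members and lists were chosen with earlier results of these data known. Alternatives were other normalizations, background corrections and filters, the deposited table, a trended and robust variance, array weights, slide and replicate blocks, single slides, the median over spots, and each array left out. The number of arrays limits the precision.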

Additional observations from a re-analysis of the deposited data

How the results depend on the processing

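Under every alternative run, 0 member probes and 0 of all kept probes passed the limma threshold. With the replicate block 0 were called and 795 probes had an unadjusted p under 0.05 (605 without it), among them CBR1 (0.0437) and IL4 (0.0297); the block changed no call. Same-numbered sows had correlations of deviations of 0.218, 0.481, 0.434 and -0.117. Differently numbered sows ran from -0.426 to 0.398, with pregnant replicate 4 and non-pregnant replicate 1 at 0.386. The labels do not tie numbers to pairs and 1 of the 4 same-numbered values was below 0.1, so the block was not the main analysis. Whether the numbers follow the half-sib pairs is not known. With the planned normexp correction the median log2 fold change of all probes was -0.20 in place of -0.044. There PTGES3 gave -0.052, PTGDS 1.32, PTGES probe 1 -0.35, PTGER3 -0.35 and -0.85, FADS1 -0.81, ALOX15 0.57, CYSLTR1 -0.13, CYSLTR2 -0.47 and PDE4B 0.30, and the list medians were -0.80 (arachidonic acid supply), -0.11 (leukotrienes), 0.49 (PTGS2 regulators), 0.57 (G proteins), 0.29 (platelets), 0.79 (monocytes), 0.66 (eosinophils, basophils and mast cells), 0.37 (T cells) and 0.064 (natural killer and cytotoxic cells). Its fitted background means reached -811 on arrays with up to 24 spots of local background above 200. With those backgrounds replaced, chosen after seeing the data, the 7 member probes kept their direction.

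On slide 1 alone PTGES probe 1 gave -0.14, PTGER3 probe 2 -0.051, arachidonic acid supply 0.21, G proteins -0.0052, platelets -0.52, monocytes 0.74 and T cells -0.18. On slide 2 alone PTGS2 probe 1 gave 0.046, TBXAS1 -0.16, PTGR1 -0.15 and CD14 -0.19. The list medians there were 0.17 for arachidonic acid supply, 0.018 for platelets and 0.19 for monocytes. Array weights gave PTGER3 probe 2 -0.30 and PTGDS 1.34, and a filter on all 8 arrays gave arachidonic acid supply 0.26. With each array left out in turn, PTGDS ranged from -0.67 to 1.46, PTGES probe 1 from -0.55 to 0.66, PTGER3 probe 2 from -0.065 to 0.48, PLA2G1B from -1.48 to 0.32, ALOX15 from -0.60 to 0.027, CYSLTR1 from -0.16 to 0.67, PRKAR1A from -0.10 to 0.51, arachidonic acid supply from -0.22 to 0.18 and G proteins from -0.067 to 0.12. The causes were not tested. Limits are 4 sows a group, 1 array per sow, and probes at background, for which no fold is given.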
